A study of Ovis aries with 6 samples.

Results

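The transcripts described here are 10 chemokines and interleukins that stromal cells make: CCL20, IL8 (the name the table uses for CXCL8), CCL2, CCL5, CXCL10, CXCL12, IL6, IL1A, IL1B and LIF. They were chosen by name, with earlier results of these data known. Of the 10, 9 had a row under that name among the 26425 rows of the deposited FPKM table. CXCL10 had none, but a row named IP-10, which the RefSeq gene table for sheep gives as a synonym of CXCL10, is described with them. Values are FPKM, the reads of a gene scaled to its length and to the size of the library.

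The cells were stromal vascular fractions of sheep fat, a mixture rich in fibroblast-like fat cell precursors, although the labels give their cell type as adipocyte. Of the 6 samples, 3 overexpressed MEOX2, a homeobox transcription factor of mesoderm, and 3 formed the control group labelled NC. Columns of both groups carry the prefix pHBLV, so the controls share whatever that prefix stands for. The labels do not say which animals or cultures the samples came from, how long after the introduction of MEOX2 the RNA was taken, or whether the cells were being differentiated. The p-values therefore rest on how much these 6 samples vary, and that variation may be technical alone.

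Chemokines are small secreted proteins that bind G protein-coupled receptors and set the direction in which leukocytes and other cells migrate. They fall into CC and CXC classes by the spacing of conserved cysteines. IL1A and IL1B signal through the IL-1 receptor to the transcription factor NF-kB, a strong inducer of CCL20, IL8, CCL2 and IL6, while IL6 and LIF signal through receptors that share the subunit gp130, encoded by IL6ST. In adipose tissue the stromal cells are a known source of CCL2, IL6, IL8 and CXCL12. No sequence of these genes or their promoters was used here.

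MEOX2 itself was at 152.7, 107.7 and 138.4 FPKM in the 3 overexpressing samples and at 10.8, 10.1 and 9.03 FPKM in the 3 NC samples, and an exact two-sided permutation test of these values gave p = 0.1, the smallest that 3 against 3 samples allow. Whole reads recovered from the FPKM values totalled 11772772 to 12230863 per library. On principal component 1 the groups lay apart; on component 2, which held 22.2% of the variance, NC sample 3 scored 21.2 and the rest -14.2 to 8.12. Of 14 stromal progenitor markers, 13 passed the filter used below, COL1A1 reaching 9410 FPKM in NC. Of 10 mature adipocyte markers found, 7 passed it, and the summed FPKM of the 10 was 307.8 to 367.1 in NC. Among these 10, ADIPOQ averaged 36.9 FPKM in NC, and the hormones LEP and RETN had 0 reads in every library.

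CCL20 and IL8 were the members that fell with MEOX2, CCL20 to 38.4% and IL8 to 56.0% of the NC mean. The monocyte attractant CCL2, by far the most abundant member, the stromal homing factor CXCL12, and the cytokines IL6, LIF and IL1A did not pass the test. CCL5, IL1B and the CXCL10 row stayed at or near the limit of detection in both groups. The fit was made with limma on log2(FPKM + 1) for the 13121 genes averaging 1 FPKM or more, and a gene was called at an adjusted p under 0.05 (Benjamini-Hochberg over all of these genes). Of the 9 members found by name, 7 were tested, and each of these was at 6.80 FPKM or more in every library. Of the 7, 2 were called lower, against 1.16% of all genes tested, and none was called higher. Of all genes, 2.67% were called in either direction. The members were chosen with earlier results of these data known, so these shares do not test them as a set. The median log2 change of the 7 was -0.17, and that of all genes tested was -0.00273. In bulk samples, fewer cells of a type and less RNA per cell cannot be told apart.

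**Figure D1:**
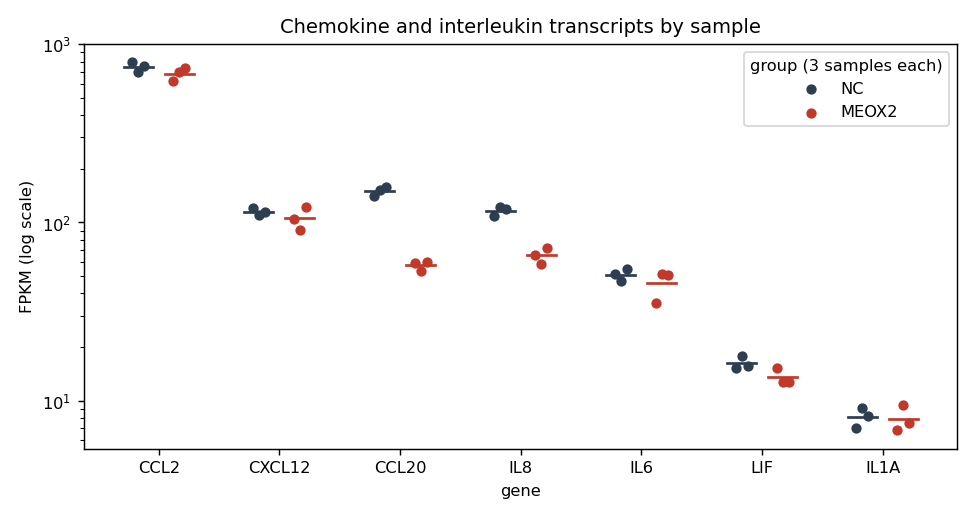
FPKM on a log axis of the 7 tested members in each sample, with NC in dark blue and MEOX2 in red, 3 points a group, and a line at each group mean. CCL20 and IL8 are the genes whose groups are apart; CCL2 lies between 621.9 and 791.9 FPKM in all 6 samples.

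CCL20, the ligand of CCR6 that draws dendritic cells and some lymphocytes to epithelia and inflamed tissue, is on chromosome 2 (ENSOARG00000020576, 229033143 to 229037444, plus strand; the genome build of the table is not given in the sources used here). Its level was 140.3, 151.2 and 158.1 FPKM in NC samples 1 to 3 and 59.2, 53.6 and 59.8 FPKM in MEOX2 samples 1 to 3. The lowest NC sample was far above the highest MEOX2 sample, and the spread inside each group was small, with coefficients of variation of 5.98% and 5.93%. The means were 149.8 ± 8.97 and 57.5 ± 3.41 FPKM (SD, n = 3 each), a 2.61-fold fall, with a log2 change of -1.37 (SE 0.08, 95% interval -1.55 to -1.18) and a limma adjusted p of 8.43e-05. The values rest on 495 to 574 reads per NC library and 196 to 215 per MEOX2 library.

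IL8, the CXC chemokine that attracts neutrophils through CXCR1 and CXCR2, is on chromosome 6 (ENSOARG00000014496, 88474889 to 88477180, plus strand). It was at 108.9, 122.5 and 118.5 FPKM in NC samples 1 to 3 and at 65.8, 58.3 and 71.8 FPKM in MEOX2 samples 1 to 3. Again the groups did not overlap, and the gap between them was larger than the range within either. The means were 116.7 ± 6.999 and 65.3 ± 6.78 FPKM (SD, n = 3 each), 1.79-fold lower with MEOX2, with a log2 change of -0.83 (SE 0.09, 95% interval -1.04 to -0.62) and a limma adjusted p of 0.00328. Reads per library were 400 to 459 in NC and 222 to 269 with MEOX2. Among all genes tested, 9.33% were lower with MEOX2 without overlap between the groups; among the 7 members tested these were CCL20 and IL8.

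CCL20 fell by more than IL8 in these samples. The ratio of CCL20 to IL8 within a sample was 1.29, 1.23 and 1.33 in NC samples 1 to 3 and 0.900, 0.919 and 0.832 in MEOX2 samples 1 to 3. CCL20 was thus the more abundant of the pair per unit length in every NC sample and the less abundant in every MEOX2 sample. On the log2(FPKM + 1) scale CCL20 minus IL8 was 0.36 ± 0.06 in NC and -0.18 ± 0.07 with MEOX2 (SD, n = 3 each), a difference of -0.54, and an exact two-sided permutation test gave p = 0.1, again the smallest possible.

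**Figure D2:**
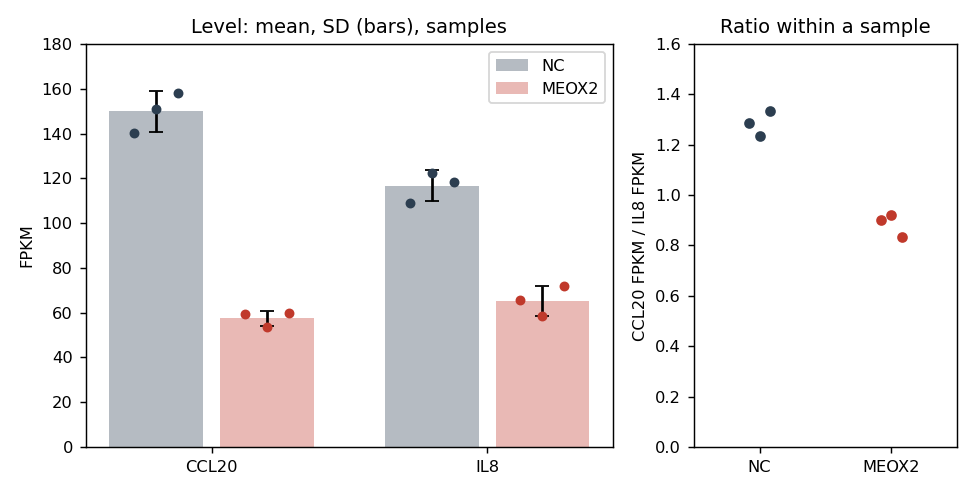
Left, FPKM of CCL20 and IL8 in NC (grey-blue) and MEOX2 (red), with bars at the mean, error bars of 1 SD and points for the 3 samples of each group. Right, the ratio of CCL20 to IL8 FPKM in each sample, which lies between 1.23 and 1.33 in NC and between 0.832 and 0.919 with MEOX2.

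CCL2, which recruits monocytes through CCR2, lies on chromosome 11 (ENSOARG00000009627, 15505826 to 15507249, minus strand) and ranked 146 of all rows by mean FPKM. It was at 791.9, 697.7 and 750.8 FPKM in NC samples 1 to 3 and at 621.9, 698.3 and 732.8 FPKM in MEOX2 samples 1 to 3. The groups overlapped, MEOX2 sample 1 being the lowest of the 6. The log2 change was -0.13 (SE 0.09, limma adjusted p = 0.603), and its 95% interval ran from -0.32 to 0.07, that is from 0.799 to 1.05 times the NC level of FPKM + 1. With 2463 to 3307 reads per library, counting error was under the spread between samples. CCL2 made up 60.4% to 64.1% of the summed FPKM of the members in NC and 68.5% to 71.7% with MEOX2, and it was 4.62 to 5.64 times as abundant as CCL20 in NC and 10.5 to 13.0 times with MEOX2.

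CXCL12, which retains hematopoietic and lymphoid cells near stroma through CXCR4 and is also bound by the scavenger receptor ACKR3, is on chromosome 25 (ENSOARG00000002991, 44535990 to 44543183, plus strand). Its level was 120.7, 109.9 and 114.2 FPKM in NC samples 1 to 3 and 104.0, 90.2 and 122.3 FPKM in MEOX2 samples 1 to 3. The highest and the lowest of the 6 values were both in the MEOX2 group. The log2 change was -0.13 (SE 0.11, 95% interval -0.38 to 0.12), with a limma adjusted p of 0.690.

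IL6, the cytokine that drives acute phase and STAT3 responses, is on chromosome 4 (ENSOARG00000012021, 31412389 to 31416357, plus strand). It was at 51.2, 46.7 and 55.0 FPKM in NC samples 1 to 3 and at 35.5, 51.3 and 50.6 FPKM in MEOX2 samples 1 to 3. MEOX2 sample 1 was the low value, and the other 2 MEOX2 samples lay within the NC range. The log2 change was -0.17 (SE 0.14, 95% interval -0.49 to 0.15, limma adjusted p = 0.698), and without MEOX2 sample 1 it was 0.00341.

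LIF, a cytokine of the IL6 family that maintains stem cells and acts on precursors of fat and bone, is on chromosome 17 (ENSOARG00000006322, 68802275 to 68803758, minus strand). It was at 15.2, 17.8 and 15.7 FPKM in NC samples 1 to 3 and at 15.3, 12.7 and 12.7 FPKM in MEOX2 samples 1 to 3. Only MEOX2 sample 1 reached the NC range. The log2 change of -0.24 (SE 0.11, 95% interval -0.48 to -0.00463) had an unadjusted p of 0.0466, as 13.4% of all genes tested had one under 0.05, and a limma adjusted p of 0.357. LIF was read 95 to 133 times per library.

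The genes of the IL-1 agonists IL1A and IL1B are close together on chromosome 3, at 60078287 to 60088697 (ENSOARG00000020877) and 60023514 to 60034494 (ENSOARG00000020866), both on the plus strand. IL1A, an alarmin active in its uncleaved form, was at 6.99, 9.14 and 8.18 FPKM in NC samples 1 to 3 and at 6.80, 9.42 and 7.47 FPKM in MEOX2 samples 1 to 3. The ranges of the groups nearly coincided, with a log2 change of -0.04 (SE 0.14, 95% interval -0.35 to 0.28) and a limma adjusted p of 0.952. IL1B, the form that caspase-1 cleaves and that myeloid cells make in quantity, had 3, 5 and 7 reads in NC samples 1 to 3 and 2, 4 and 3 reads in MEOX2 samples 1 to 3. At 0.0852 ± 0.0330 FPKM in NC and 0.0516 ± 0.0152 FPKM with MEOX2 (SD, n = 3 each), IL1B was under the filter, and at this depth no difference in it could be detected. The length the table gives for IL1B, 4795 bases, is not a multiple of 3, unlike those of the other members (276 to 930 bases), so its FPKM may be counted over a different kind of gene model.

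CCL5, a T cell and monocyte attractant, had 1 read in NC sample 1 and 0 reads in each of the other 5 libraries. For a count of 0, up to 3 reads, or 0.874 to 0.955 FPKM, are allowed. The IP-10 row (ENSOARG00000016611, chromosome 6, 90551375 to 90552865, minus strand), for the interferon-induced chemokine CXCL10, had 1 read in NC sample 2 and 0 reads elsewhere, with a limit of 0.780 to 0.853 FPKM. Both are typical products of cells exposed to interferon or virus. No fold change is given for either.

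**Figure D3:**
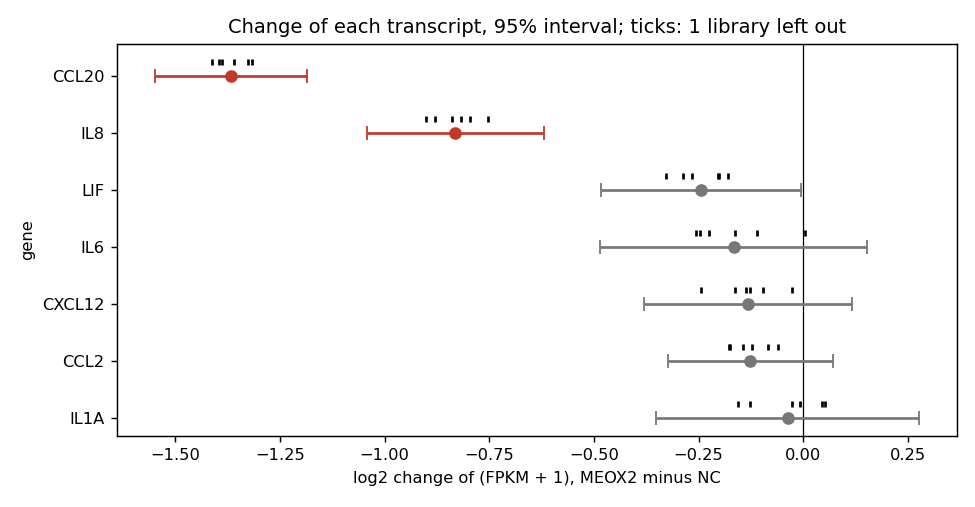
Log2 change of FPKM + 1, MEOX2 minus NC, for the 7 tested members with the 95% interval of limma (red: adjusted p under 0.05). Black ticks give the change with each of the 6 libraries left out in turn; those of CCL20 (-1.41 to -1.32) and IL8 (-0.90 to -0.75) stay away from 0.

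The order of the members by FPKM, a level per unit of gene length, differed between the groups through CCL20 and IL8. In NC it ran CCL2 (746.8 FPKM), CCL20 (149.8), IL8 (116.7), CXCL12 (114.9), IL6 (51.0), LIF (16.2) and IL1A (8.10). IL8 and CXCL12 overlapped there, and the other neighbours in the order did not. With MEOX2 the order was CCL2 (684.3), CXCL12 (105.5), IL8 (65.3), CCL20 (57.5), IL6 (45.8), LIF (13.6) and IL1A (7.90). IL8 and CCL20 overlapped, with 58.3 to 71.8 against 53.6 to 59.8 FPKM, while IL6, at no more than 51.3 FPKM, stayed below both.

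Most of the other chemokine ligands found in the table had few or no reads. Of 31 in a list of them, 21 were found, 7 of them had 0 reads in all libraries, 15 had fewer than 5 reads in every library, and 4 were tested. The rest, CXCL1, CXCL2, CXCL3, CXCL5, CXCL6 and PF4 among them, had no row under their names or a synonym. Their expression is therefore not known here. CCL19, a ligand of CCR7 on dendritic cells and naive T cells, fell from 11.5 ± 1.05 FPKM in NC to 7.81 ± 0.463 FPKM with MEOX2 (SD, n = 3 each; log2 change -0.50, limma adjusted p = 0.0391). CCL26, an eosinophil attractant, averaged 9.90 ± 0.146 FPKM in NC and fell to 5.60 ± 1.58 with MEOX2, a log2 change of -0.75 (limma adjusted p = 0.0455), on 11 to 25 reads per library. Leaving out any of the 6 libraries ended the call of CCL19 (limma adjusted p 0.0595 to 0.155), and leaving out any but MEOX2 sample 2 ended that of CCL26 (0.0996 to 0.148). Neither was called by limma voom on the recovered reads (adjusted p = 0.266 and 0.222). CXCL16 was at 3.56 ± 0.0861 and 3.14 ± 0.285 FPKM and CCL25 at 3.89 ± 0.735 and 4.19 ± 1.14 FPKM in NC and MEOX2 samples (SD, n = 3 each).

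Downstream of IL8 on chromosome 6, 5 tested Ensembl rows without a symbol lie within 300 kb; they were looked up after their values were seen. The most abundant, ENSOARG00000014592 (88555264 to 88556088), was at 1825 ± 109 FPKM in NC and 1606 ± 199 FPKM with MEOX2 (SD, n = 3 each), with a log2 change of -0.19 and a limma adjusted p of 0.488. The next one along, ENSOARG00000014766 (88584559 to 88585388), was at 171.4 ± 11.3 and 154.6 ± 20.7 FPKM (SD, n = 3 each), with a log2 change of -0.15. None of the 5 was called by limma or limma voom. Whether these rows are among the CXC ligands that had no row under their names was not determined. The 6 tested rows nearest to CCL20, 3 on each side, lay up to 2104 kb away. None of them was called (log2 changes -1.58 to 0.19, lowest limma adjusted p = 0.270). The value of -1.58 was that of the unnamed row ENSOARG00000024513 (228726569 to 228726626). It was at 4.29 ± 4.997 FPKM in NC and 0.470 ± 0.813 FPKM with MEOX2 (SD, n = 3 each). Being under 1 FPKM with MEOX2, it passed the filter only through the NC samples. Over so short a row these levels rest on few reads. Nor was any called of the 6 nearest to IL8, up to 642 kb away, whose log2 changes ran from -0.18 to 0.12. The 6 nearest to CCL2 were 760 to 1828 kb away. Of these, 1 was called, where 2.67% of all genes tested were called in either direction. That was MYO1D, a myosin gene 1561 kb from CCL2, which rose by 0.68 (limma adjusted p = 0.0104). These neighbours were likewise chosen after the members' values were seen.

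Of the receptors for these ligands, the conventional ones found in the table were scarcely detected. CCR6, the receptor of CCL20, CCR2, that of CCL2, CCR1 and CCR3, which bind CCL5 among others, and CXCR3, that of CXCL10, had 0 reads in all 6 libraries, and CXCR4 was at 0.437 ± 0.0878 FPKM in NC and 0.852 ± 0.309 FPKM with MEOX2 (SD, n = 3 each). For CXCR1 and CXCR2, the receptors of IL8, no row was found by symbol or synonym, so their levels are not known here. Of 23 chemokine receptors, 18 were found and 3 were tested. The atypical receptor ACKR4, which takes up CCL19, CCL21 and CCL25 without signalling through G proteins, was at 12.3, 8.22 and 13.1 FPKM in NC samples 1 to 3 and at 22.4, 19.7 and 22.3 FPKM in MEOX2 samples 1 to 3. It rose by 0.90 on the log2 scale (limma adjusted p = 0.0204), a call lost without MEOX2 sample 1, MEOX2 sample 3 or NC sample 1 (0.0740, 0.0843 and 0.0539) or without a filter (0.0783). ACKR3, the scavenger of CXCL12, was at 233.4 ± 6.38 FPKM in NC and 306.0 ± 30.7 FPKM with MEOX2 (SD, n = 3 each), with a log2 change of 0.38 and a limma adjusted p of 0.0596. Limma voom called 2 of the 3 tested receptors higher, and 573 of all 13121 genes tested in either direction. CCRL2, a non-signalling relative, was at 1.12 ± 0.259 and 1.05 ± 0.258 FPKM.

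Among 50 other interleukins and cytokines, 45 were found, 12 were tested, and limma called none of them. The unadjusted limma p was under 0.05 for 4 of the 12, and for 13.4% of all genes tested. Limma voom called 1 lower, and 573 of all 13121 genes tested in either direction. The granulocyte factor CSF3 was at 8.83 ± 1.24 FPKM in NC and 4.37 ± 1.54 FPKM with MEOX2 (SD, n = 3 each; log2 change -0.91, limma adjusted p = 0.0695). IL18, activated like IL1B by caspase-1, was at 13.6 ± 1.58 and 10.04 ± 1.03 FPKM, and the macrophage factor CSF1 at 75.2 ± 3.28 and 64.0 ± 3.12 FPKM. TNF had at most 2 reads per library. The median log2 change of these 12 was -0.03.

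All 18 genes found of the IL-1 receptor pathway passed the filter, as did 11 of 13 found of the IL-6 and LIF receptor pathway. Of 18 tested genes of the IL-1 receptor pathway, 1 was called, and higher: IL18R1, a subunit of the IL-18 receptor, was at 0.723 ± 0.182 FPKM in NC and 1.89 ± 0.184 FPKM with MEOX2 (SD, n = 3 each; log2 change 0.75, limma adjusted p = 0.0496). It was under 1 FPKM in NC and passed the filter only through the MEOX2 samples, so a gene at that level in NC had to be higher with MEOX2 to be tested. That call ended whichever of the 6 libraries was left out (limma adjusted p 0.0946 to 0.184). IL1R2, a decoy receptor of IL-1, was at 51.2 ± 3.29 and 41.5 ± 2.01 FPKM (limma adjusted p = 0.117), IRAK1 at 21.1 ± 1.503 and 24.5 ± 1.32 FPKM and the inflammasome sensor NLRP3 at 6.70 ± 0.458 and 5.52 ± 0.371 FPKM. IL1R1, the signalling receptor, chosen after its values were seen, was at 48.8 ± 3.14 and 46.3 ± 2.52 FPKM. The median log2 change was -0.03.

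Of 11 tested genes of the IL-6 and LIF receptor pathway, neither limma nor limma voom called any. The unadjusted limma p was under 0.05 for 2 of the 11, and for 13.4% of all genes tested. The 2 were the kinase JAK1 and SOCS3, a feedback inhibitor induced by STAT3. JAK1 was at 104.2 ± 6.34 FPKM in NC and 88.9 ± 2.68 FPKM with MEOX2, and SOCS3 at 27.9 ± 3.20 and 23.2 ± 1.78 FPKM (SD, n = 3 each). SOCS2 was at 3.22 ± 0.617 and 4.21 ± 0.742 FPKM. IL6ST, chosen after its values were seen, was at 68.2 ± 12.7 and 57.5 ± 1.498 FPKM, and IL6R averaged 0.986 and 0.522 FPKM, under the filter. For LIFR, a receptor of LIF, and IL11RA no row was found by symbol or synonym, so their levels are not known here.

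Limma called none of 17 tested NF-kB subunits, inhibitors and kinases. Limma voom called 1 of them, and 573 of all 13121 genes tested. The unadjusted limma p was under 0.05 for 5 of the 17, and for 13.4% of all genes tested. The 17 pointed both ways, 11 with a positive and 6 with a negative log2 change (median 0.03). TNFAIP3, the deubiquitinase that ends NF-kB signalling, was at 9.80 ± 0.208 FPKM in NC and 12.5 ± 0.555 FPKM with MEOX2 (log2 change 0.32, limma adjusted p = 0.103). NFKBIZ, a nuclear co-factor, was at 45.8 ± 1.55 and 36.3 ± 5.23 FPKM, and NFKBIA, the main cytoplasmic inhibitor and itself a target, at 44.9 ± 2.45 and 37.0 ± 4.20 FPKM (SD, n = 3 each). RELA and NFKB1, chosen after their values were seen, had log2 changes of 0.02 and -0.03. Transcript levels do not measure the activity of NF-kB.

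Of 14 tested inflammatory effector genes outside the cytokines, 3 fell, 1 rose and 10 were not called, and the median log2 change was -0.26. Of all genes tested, 2.67% were called in either direction. The unadjusted limma p was under 0.05 for 8 of the 14, and for 13.4% of all genes tested. Log2 changes were negative for 13 of the 14 and positive for 1, and were negative for 6655 of all 13121 genes tested. Limma voom called 4 lower and 1 higher, and 573 of all genes tested in either direction. The list was chosen with earlier results of these data known. The pentraxin PTX3, a soluble pattern recognition protein, fell from 4165 ± 297 FPKM in NC to 2887 ± 246 FPKM with MEOX2 (SD, n = 3 each; log2 change -0.53, limma adjusted p = 0.0210), the mitochondrial enzyme SOD2 by 0.41 and complement factor CFB by 0.40 on the log2 scale. IER3, an early response gene, was at 186.0 ± 5.70 FPKM in NC and rose to 255.7 ± 14.4 with MEOX2, by 0.46 on the log2 scale (limma adjusted p = 0.0144). With 1 library left out the log2 changes stayed between -0.44 and -0.38 for SOD2, -0.45 and -0.37 for CFB, -0.59 and -0.47 for PTX3 and 0.41 and 0.49 for IER3, but several calls ended in these smaller fits. SOD2 and CFB kept theirs only without NC sample 3 (limma adjusted p otherwise up to 0.126 and 0.148), PTX3 lost its call without either NC sample 1 or 2 or MEOX2 sample 3 (highest limma adjusted p 0.121) or without a filter (0.130), and IER3 without MEOX2 sample 3 or NC sample 1 (up to 0.0764). PTGS2, the inducible cyclooxygenase, was at 61.0 ± 4.79 and 47.3 ± 0.660 FPKM (limma adjusted p = 0.0594), PAI-1 at 561.2 ± 31.3 and 467.1 ± 23.5 FPKM, and the adhesion molecule ICAM-1, chosen after its values were seen, at 108.2 ± 3.899 and 106.3 ± 8.76 FPKM.

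**Figure D4:**
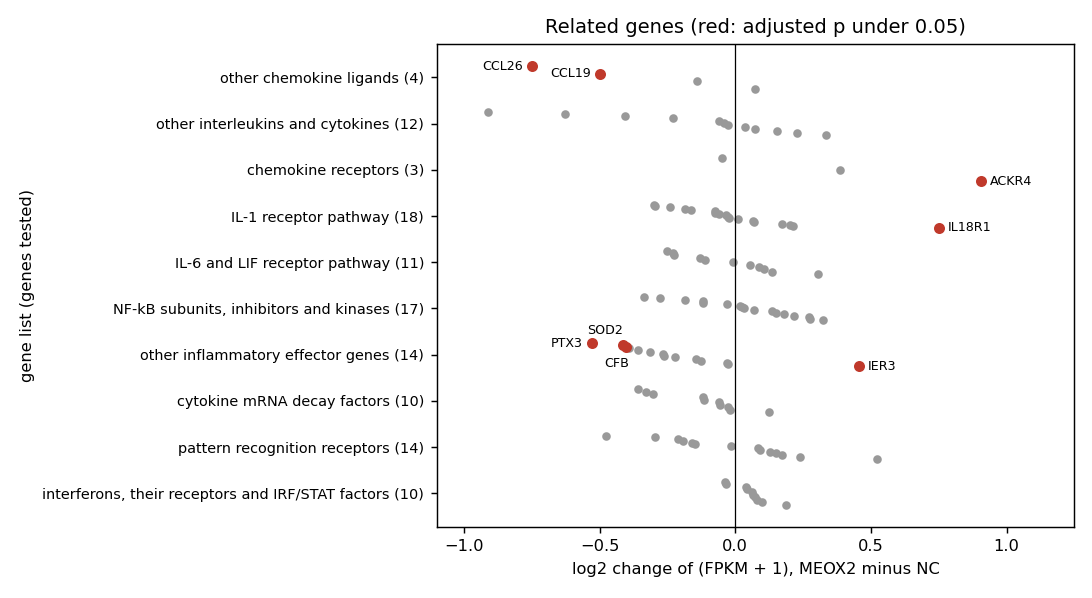
Log2 change of FPKM + 1, MEOX2 minus NC, of each tested gene in 10 lists of related genes, 1 point a gene, with the number tested in parentheses (red and named: adjusted p under 0.05). Of the 113 genes, 3 were called higher and 5 lower; the others are grey.

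Of 10 factors that bind cytokine mRNAs, most of which promote their decay, limma called none and limma voom 1. Limma voom called 573 of all 13121 genes tested. The unadjusted limma p was under 0.05 for 3 of the 10, and for 13.4% of all genes tested. ZFP36 (tristetraprolin) was at 16.4 ± 0.546 FPKM in NC and 12.6 ± 1.27 FPKM with MEOX2 (SD, n = 3 each; log2 change -0.36, limma adjusted p = 0.106), ZFP36L1 at 66.5 ± 3.60 and 54.1 ± 7.77 FPKM and KHSRP at 34.4 ± 3.57 and 27.3 ± 4.27 FPKM. None of 14 pattern recognition receptors and none of 10 interferon receptors and IRF or STAT factors was called by limma or limma voom, with 3 and 0 at an unadjusted p under 0.05. The DNA sensor MB21D1 was at 2.47 ± 0.297 and 1.505 ± 0.352 FPKM, TLR2 at 1.81 ± 0.665 and 2.99 ± 0.546 FPKM, and LY96, the partner of TLR4, at 59.9 ± 4.29 and 51.7 ± 2.95 FPKM. Of the interferon list, IFNGR1 was at 43.0 ± 3.15 and 49.1 ± 4.15 FPKM and IRF1, an activator of CXCL10, at 13.2 ± 0.762 and 14.1 ± 0.667 FPKM, while IFNAR2 had a log2 change of 0.08. Over all 10 lists, 113 genes were tested, 3 were called higher, IL18R1 among them, and 5 lower, where 2.67% of all genes tested were called in either direction. The median log2 change of the 113 was -0.03.

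Of the markers of other cells and states, 4 of 7 tested for mature adipocytes and 2 of 6 tested for macrophages and leukocytes were lower with MEOX2. Of all genes tested, 1.16% were called lower, and these lists were chosen with earlier results of these data known. Of 10 mature adipocyte markers found, 7 were tested and 4 fell. ADIPOQ fell by 2.23 on the log2 scale, FABP4 fell by 1.55, PLIN1 fell by 0.91 and CIDEC fell by 0.75. The calls of PLIN1 and CIDEC ended whichever of the 6 libraries was left out (0.0872 for PLIN1 and 0.0958 for CIDEC being the highest limma adjusted p), and that of PLIN1 also without a filter (0.0519). The summed FPKM of these markers was 307.8 to 367.1 in NC and 139.4 to 164.9 with MEOX2, and their part in the fall of CCL20 and IL8 was not tested. Of 18 macrophage and leukocyte markers found, 6 were tested, and the genes of the neutrophil and monocyte proteins S100A8 and S100A9 fell. S100A8 was at 21.2 ± 2.15 FPKM in NC and 9.37 ± 2.01 FPKM with MEOX2 (limma adjusted p = 0.00697), and S100A9 at 7.33 ± 1.26 and 3.35 ± 0.576 FPKM (0.0150; SD, n = 3 each). The call of S100A9 held without MEOX2 sample 1 or NC sample 3 and ended without each of the others (up to 0.0640) or without a filter (0.0621).

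The other leukocyte markers tested, CD163, CD68, CD14 and LAPTM5, were not called. The summed level of all 18 markers was 142.5 to 156.9 FPKM in NC and 138.1 to 147.7 FPKM with MEOX2; without CD14 it was 42.1 to 47.7 and 24.6 to 28.8 FPKM, S100A8 and S100A9 included. CD14, which stromal cells also express, was at 105.2 ± 4.42 and 117.0 ± 7.01 FPKM. PTPRC (CD45), which defines leukocytes, had at most 2 reads in any library, CD79A at most 1, and MS4A1 had 0 in all 6. The part of these markers in the fall of CCL20 and IL8 was not tested. Of 10 endothelial and 7 mesothelial or epithelial markers found, 1 and 2 were tested and none was called; their summed levels were 2.32 to 3.68 and 2.43 to 2.87 FPKM in NC and 2.50 to 4.12 and 2.30 to 3.26 FPKM with MEOX2. EMCN, ROBO4 and EPCAM had 0 reads. Among 13 tested stromal progenitor markers limma called none and limma voom called 1 lower, where limma voom called 573 of all 13121 genes tested. The unadjusted limma p was under 0.05 for 7, and for 13.4% of all genes tested. Log2 changes were positive for 7 of the 13 and negative for 6 (median 0.00765). The lowest p values were those of ENG (log2 change -0.30), NT5E (-0.23) and CD34 (-0.54). The summed level of all 14 stromal markers found was 33794 to 35496 FPKM in NC and 36082 to 40484 FPKM with MEOX2. That sum gives most weight to the most abundant markers, COL1A1 among them, and does not show that the markers rose as a set.

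The genes most like CCL20 and IL8 over the 6 samples are given as a description, by Pearson's r of log2(FPKM + 1) across the 6 libraries, which share the division into NC and MEOX2. For CCL20 they were FAM198B (0.997), E2F8 (0.996), C10orf54 (0.996), CA12 (0.995) and ADIPOQ (0.994). Of these, E2F8 and C10orf54 were not called (log2 changes -0.41 and -0.15, limma adjusted p = 0.190 and 0.396). FAM198B went from 121.9 ± 1.94 FPKM in NC to 82.7 ± 3.79 FPKM with MEOX2, and CA12, a carbonic anhydrase, from 323.6 ± 4.25 to 236.7 ± 2.85 FPKM (SD, n = 3 each). For IL8 they were BGN (0.998), IGFBP-5 (0.996), SNED1 (0.995), DMRT2 (0.994) and FAM198B (0.992). Of these, DMRT2 was not called (log2 change -0.29, limma adjusted p = 0.170). BGN, the matrix proteoglycan biglycan, went from 709.7 ± 16.3 to 525.0 ± 24.4 FPKM and IGFBP-5, a binding protein of insulin-like growth factors, from 135.8 ± 6.73 to 84.9 ± 4.19 FPKM. CCL20 and IL8 had an r of 0.988 with each other, and 106 and 79 named genes had an r above 0.95 with CCL20 and with IL8.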

How the data were processed

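Per the labels' protocols, TRIzol RNA went into NEBNext Ultra RNA libraries. The submitters' processing notes name HISAT2 2.0.5, featureCounts 1.5.0-p3, fastp, CASAVA 1.8 and DESeq2 1.20.0, with no roles. The sources used here give no build, annotation or strand setting, and reads of overlapping or antisense genes cannot be told apart. The authors deposited FPKM values in 1 table. Multiplied by the deposited gene length, 100% of values above 0 came out as whole reads (tolerance 0.01 of a read), which gave the depth.

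Log2(FPKM + 1) was fitted with limma 3.58.1 in R 4.3.3 (eBayes with trend, MEOX2 against NC, no covariates) on the genes averaging 1 FPKM or more, with Benjamini-Hochberg adjustment at 0.05. Changes on this scale understate those of low genes. Python 3.11.15, pandas 2.3.3, scipy 1.17.1 and matplotlib 3.10.9 were used otherwise. The fit was tested on simulated data for MEOX2 against NC with 13022 genes: of 98 genes given a 2-fold change 81.6% were called, of 96 given a 1.5-fold change 43.8%, and 4 of 126 calls were false. Every simulated gene had the same dispersion, 0.00712, so these figures need not hold for real genes, which differ in spread. Chi-square per gene between libraries of a group was 3.70 to 12.1, above the value of about 1 that sampling noise gives.

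The members and lists were chosen with earlier results of these data known. Named genes are the members, and in each list the called genes and up to 3 more with the smallest p; others are marked. Of 302 list symbols, 247 matched by symbol and 6 by RefSeq synonym (assembly ARS-UI_Ramb_v3.0). Alternatives were another pseudocount, filters, scalings and variance models, limma voom, a replicate block and each library left out.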

Additional observations from a re-analysis of the deposited data

How the results depend on the processing

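CCL20 and IL8 stayed called lower in all 9 other settings and in all 6 fits that left out 1 library; the highest limma adjusted p was 0.00186 for CCL20 and 0.0204 for IL8. Their log2 changes ran from -1.41 to -1.32 and from -0.90 to -0.75 with a library left out. No other member was called in any of these. IL6 changed sign without MEOX2 replicate 1 (0.00341), and IL1A without MEOX2 replicate 1 (0.0521) or NC replicate 2 (0.0438); with each library left out they ran from -0.26 to 0.00341 and from -0.16 to 0.0521. The 350 genes called became 194 without a filter and 573 with limma voom on recovered reads, and 117 (without NC replicate 1) to 276 (without NC replicate 3) with a library left out. The 8 called genes of the related lists became 4 when no filter was used, 5 when the trend was dropped, 5 under the replicate block, 10 with a filter at 5 FPKM, 11 with limma voom and 0 to 5 with a library left out, 0 being reached without MEOX2 replicate 3 or NC replicate 1. The fits with a library left out have fewer samples, so a lost call need not rest on that library. Samples with the same number did not deviate together (correlations -0.07, 0.02 and -0.00417), so the numbers were not treated as pairs; with the replicate block 242 genes were called and CCL20 and IL8 kept their calls (limma adjusted p = 4.92e-04 and 0.0102). The depth limits CCL5, IL1B and the IP-10 row, with at most 7 reads per library.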
